A study of Lepidobatrachus laevis with 14 samples.

Results

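The cadherins, protocadherins, integrins and claudins are the membrane proteins through which animal cells hold to each other, to the matrix and to the seal between epithelial cells. Their transcripts were described in stomach tissue of Budgett's frog, Lepidobatrachus laevis, whose carnivorous larva carries a large stomach. Counts were listed against human UniProt entries, and members were the reviewed entries whose entry name belongs to one of these families, each represented by its row of highest mean count. This gave 68 members from 93 rows, of 13574 reviewed entries in 26940 rows: 16 cadherins, 11 protocadherins (DCHS1, a larger relative, counted with them by its entry name), 15 alpha integrins, 7 beta integrins and 19 claudins. Names are therefore those of the human counterparts, and no position in a frog genome is attached to them.

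The tissue came from wild-caught, wild-type animals at Gosner stage 19, with no treatment named, and the stomach had been parted into left and right. Left libraries numbered 7 and right libraries 7. On each side replicates 7 and 8 pooled tissue of 5 stomachs and replicates 1, 2, 3, 5 and 6 held tissue of 1 stomach. Separate facilities built the pools and the single-stomach libraries, and the effects of pooling and of facility cannot be told apart. The left-right comparison bears on the subject of the study's title, asymmetric stomach morphogenesis, and the comparison of pools with single stomachs is one of library source.

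Cadherins bind the same or a related cadherin on the neighbouring cell through calcium-dependent repeats, and classical cadherins are tied to actin by beta-catenin and alpha-catenin. Protocadherins lack the catenin-binding tail and are known for sorting and patterning of cells. Integrins are pairs of an alpha and a beta chain that bind matrix proteins such as fibronectin, laminin and collagen, and link them to actin through talin and kindlin. Claudins form the strands of tight junctions and set which ions pass between epithelial cells. In a developing gut tube, epithelial cells carry E-cadherin and several claudins, while mesenchyme, vessels, muscle and blood carry other members of these families.

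Total counts ran from 12174670 to 62707669 per library, and the members' rows took 0.178% to 0.381% of them. Of the 68 members 59 passed the filter on low counts and were tested: 11 cadherins, 11 protocadherins, 14 alpha integrins, 7 beta integrins and 16 claudins. The other 9, which are CDH8, CDH13, CDH16, CDH22, CDH23, ITGA11, CLDN14, CLDN20 and CLDN22, were each under 1 CPM in every library. CPM here are counts scaled to a common, TMM-corrected library total, they are not corrected for transcript length, and levels are compared between libraries and not between genes. P-cadherin, CDH3, had no row under its entry name. The 10 foregut and stomach markers, among them FOXA2, SOX2, GATA4, GATA6 and BARX1, were all detected, with a summed level of 765 to 1126 CPM on the left and 749 to 1166 CPM on the right. Among the single-stomach libraries, replicates 1 to 3 and replicates 5 and 6 stood apart from each other in several members and marker lists given below. Values are therefore given for both sets, with no test between them. The share of all rows in which these sets do not overlap was not counted. A lack of overlap between them is therefore given as a description, without a background.

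**Figure D1:**
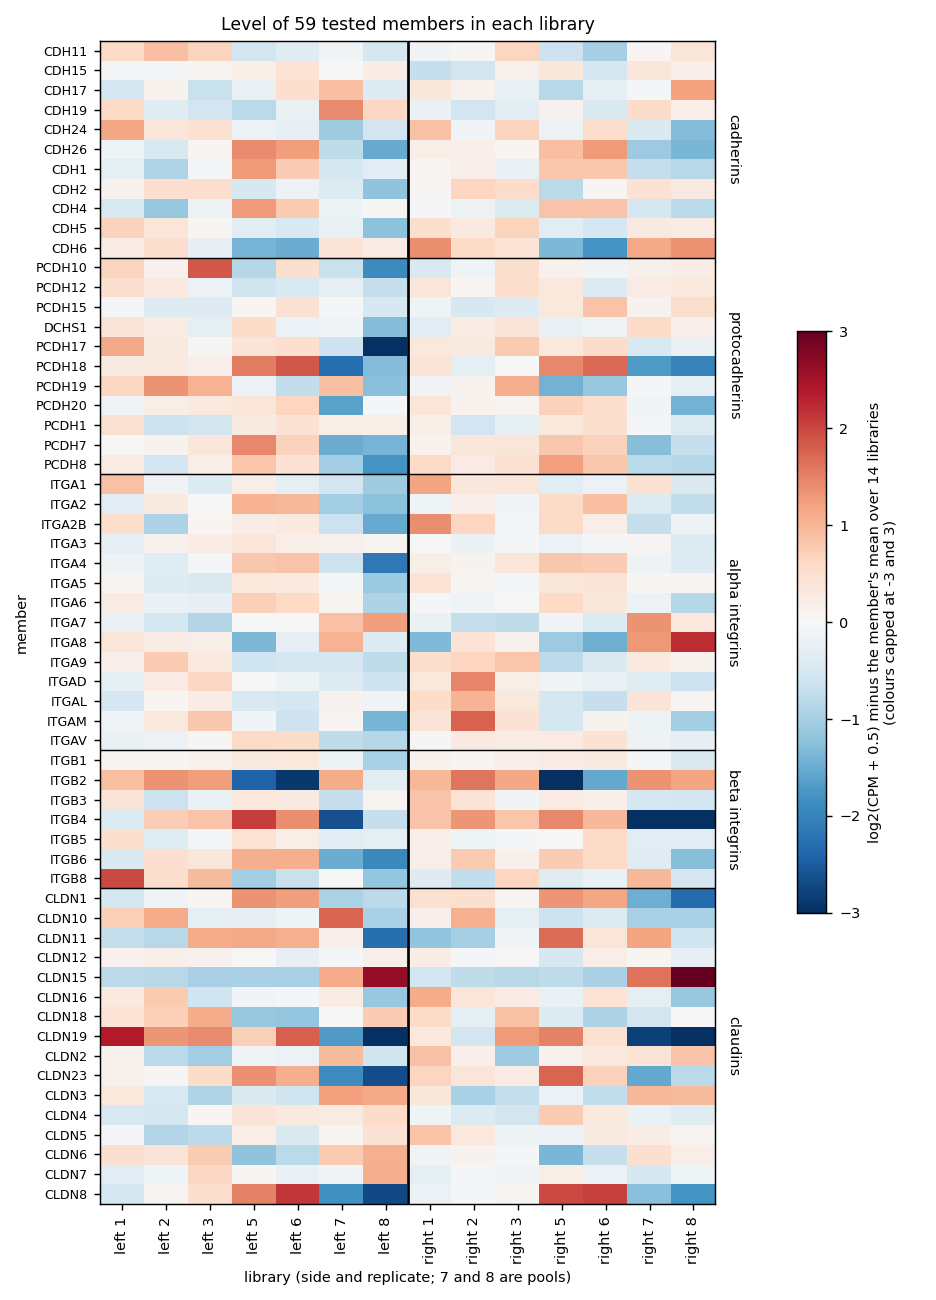
Level of each of the 59 tested members (rows, by family) in 14 libraries (columns, left before right), as log2(CPM + 0.5) minus the member's mean, with red above and blue below the mean. Columns of replicates 5 and 6 and of the pools 7 and 8 stand apart on both sides in CDH26, PCDH18, CLDN1 and CLDN8, whereas CLDN12 and ITGA3 vary little, between 7.98 and 13.3 CPM and between 57.6 and 97.5 CPM.

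No member was called between the left and the right stomach across the 14 libraries. With library source held as a term, the quasi-likelihood test of edgeR called 0 of 59 members and 0% of 23271 rows (the lowest adjusted p of any member was 0.99998), and DESeq2 with the same terms also called 0 members. At an unadjusted p under 0.05 stood 4 of the 59 (6.78%), PCDH8, ITGA2B, ITGA3 and CLDN19, against 1.06% of all rows. With 1 library left out 0 to 5 members stood there, beside 156 to 359 rows. Without the source term it was 1 member beside 143 rows, and with the replicate block 9 members beside 469 rows. In the fit with the source term the log2 fold, left minus right, was positive in 25 members and negative in 34. Its median was -0.05 beside 0.01 over all rows. By family the median fold was 0.06 for cadherins, -0.08 for protocadherins, -0.35 for alpha integrins, -0.08 for beta integrins and 0.07 for claudins. Of the 14 alpha integrins 11 had a negative fold. In the edgeR fit within title pairs, described below, 9 were negative and 5 positive, with a median of -0.19. The summed CPM of the alpha integrins was higher on the left in 2 of these 5 pairs. Over the alternative fits the alpha integrin median stayed negative, between -0.63 and -0.18. Those fits reuse the same libraries, so the shared sign is not independent support. The medians of the other 4 families changed sign. They lay between -0.17 and 0.10 for cadherins and -0.56 and 0.07 for protocadherins. For beta integrins they lay between -0.14 and 0.04, and for claudins between -0.00063 and 0.18. Without the left pool 8 the fold over all tested members was positive in 32 and negative in 28, with a median of 0.03. Without any other 1 library it was positive in 21 to 30 and negative in 30 to 38, with medians of -0.13 to 0.01. The 7 left and 7 right libraries overlapped in every tested member, and 0.00859% of rows, 2 in number, did not overlap.

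**Figure D2:**
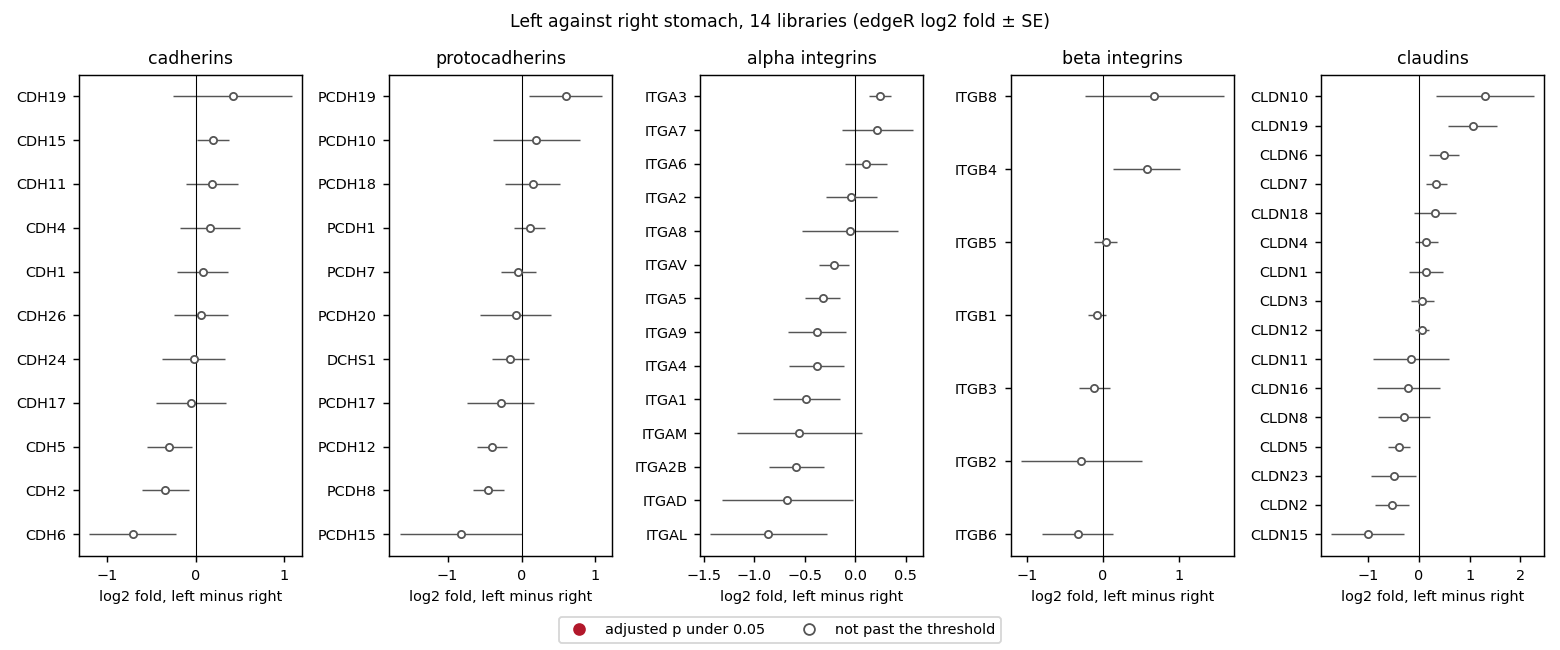
Log2 fold of left minus right stomach (horizontal axis) with its standard error for each tested member, in 1 panel per family. All points are open because 0 of 59 members passed the adjusted threshold, and 11 of 14 alpha integrins lie to the left of 0.

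Within the 5 pairs of single-stomach libraries whose titles share a stem, a few members lay on one side in every pair. The filter on these 10 libraries also kept 59 members, but with CDH8 in and CLDN15 out. CDH11 had its higher value on the left in 5 of 5 pairs (1 of 59 members, 1.69%, against 3.53% of rows), and PCDH8 and ITGA5 were lower on the left in 5 of 5 (2 members, 3.39%, against 3.76% of rows), so these shares lay near those of all rows. The edgeR test with the pair as a block called 0 members and 0% of 23768 rows, with adjusted p of 0.559 for PCDH8, the lowest of the members. At an unadjusted p under 0.05 stood 8 members (13.6%, against 5.72% of rows): CDH11, PCDH19, PCDH8, ITGA5, CLDN19, CLDN2, CLDN5 and CLDN6. DESeq2 with the same block called 2 of the 52 members to which it gave an adjusted p, PCDH8 and CLDN5, both lower on the left, where it called 0.348% of rows lower. The labels do not say that a shared stem is 1 stomach, so the pairing rests on the titles alone.

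Several tissue markers were also called within the pairs by DESeq2, and their part in the PCDH8 and CLDN5 calls was not tested. It called lower on the left the 3 fibrinogen chains among 5 liver markers, FIBA (log2 fold -0.71 ± 0.11, adjusted p = 1.11e-06), FIBB (-0.62 ± 0.12, adjusted p = 0.000258) and FIBG (-0.78 ± 0.11, adjusted p = 1.89e-08). The liver list summed to 5017, 2619, 1337, 3304 and 3208 CPM on the left of pairs 1, 2, 3, 5 and 6. On the right it summed to 9787, 4257, 2394, 5175 and 3810 CPM, so it was lower on the left in 5 of 5. In pools the sides overlapped, at 26864 and 34301 CPM on the left and 21174 and 27546 CPM on the right. Within the pairs vitronectin (VTNC), a plasma protein made by liver and an integrin ligand, was called lower on the left too (-0.61 ± 0.14, adjusted p = 0.0103). So were GATA4 (-0.45 ± 0.11, adjusted p = 0.0110) and NKX23 (-0.73 ± 0.20, adjusted p = 0.0402) of 10 foregut and stomach markers, CSF1R of 4 leukocyte markers with an adjusted p (-0.99 ± 0.27, adjusted p = 0.0481) and ACTA of 3 smooth muscle markers (-0.43 ± 0.11, adjusted p = 0.0216). SOX10, of 4 neural crest and neuron markers, was called higher on the left (2.76 ± 0.69, adjusted p = 0.0237), where DESeq2 called 0.159% of rows higher. By edgeR none of these was called.

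Side differences were also compared between pools and single stomachs. The interaction of side with source called 0 members and 0% of rows by edgeR, with 5 members (8.47%, against 7.67% of rows) at an unadjusted p under 0.05, namely PCDH10, DCHS1, ITGB4, ITGB6 and CLDN10. In this comparison DESeq2 called 0 of the 58 members to which it gave an adjusted p, and 140 of 23205 rows.

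Pools and single stomachs differed in many members. Of 59 members edgeR called 5 higher in pools (8.47%, against 12.7% of rows) and 18 lower (30.5%, against 17.7% of rows). The median log2 fold, pool minus single, was -0.47 over members and -0.10 over all rows. It was -0.32 for cadherins, -0.87 for protocadherins, -0.66 for alpha integrins, -0.54 for beta integrins and -0.07 for claudins. All 4 pools lay above all 10 single-stomach libraries in 3 members (5.08%, against 6.85% of rows) and below them in 14 (23.7%, against 11.0% of rows). The filter kept rows that were high in a single source, and these are included in the counts. CLDN15 held 0 to 5 counts in each single-stomach library, and ITGAD 0 to 2 counts in each pool. Library totals without TMM scaling moved the median of all rows to -0.27 and the calls to 4 higher and 23 lower members, with 1881 rows higher and 5264 lower in place of 2955 and 4127. In bulk tissue, fewer cells of a type and less RNA per cell cannot be told apart.

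Several marker lists moved with library source as well, and their part in the results below was not tested. Shares called over all rows, 17.7% lower and 12.7% higher, stand as the background for them too. Of 6 epidermal markers 5 were called lower in pools, where the list summed to 6.06 to 125 CPM, against 225 to 1284 CPM in single-stomach libraries; TP63, listed as P63, was at 0 to 0.455 CPM in pools and 2.38 to 21.9 CPM in single-stomach libraries. Of 5 matched liver markers all 5 were called higher, with sums of 21174 to 34301 CPM in pools and 1337 to 9787 CPM in single-stomach libraries. Skeletal and cardiac muscle markers were called higher in 5 of 7 cases (73.96 to 294 CPM in pools and 22.6 to 124 CPM in single-stomach libraries). Of 3 tested smooth muscle markers 0 were called higher and 1 (33.3%) lower. The 4 matched smooth muscle markers summed to 115 to 270 CPM in pools and 142 to 458 CPM in single-stomach libraries. None of 5 tested leukocyte markers and none of 4 neural crest and neuron markers was called, and 2 of 10 foregut and stomach markers (20%) were called lower. Of 4 tested erythroid markers 1 was called higher. Their list summed to 66880 CPM in the left pool 8, 18091 to 26382 CPM in the other pools and 901 to 24637 CPM in single-stomach libraries. The left pool 8 also had the lowest TMM factor, 0.776 against 0.935 to 1.11 in the other libraries. It was the lowest library in several members below, and the part of these features was not tested.

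**Figure D3:**
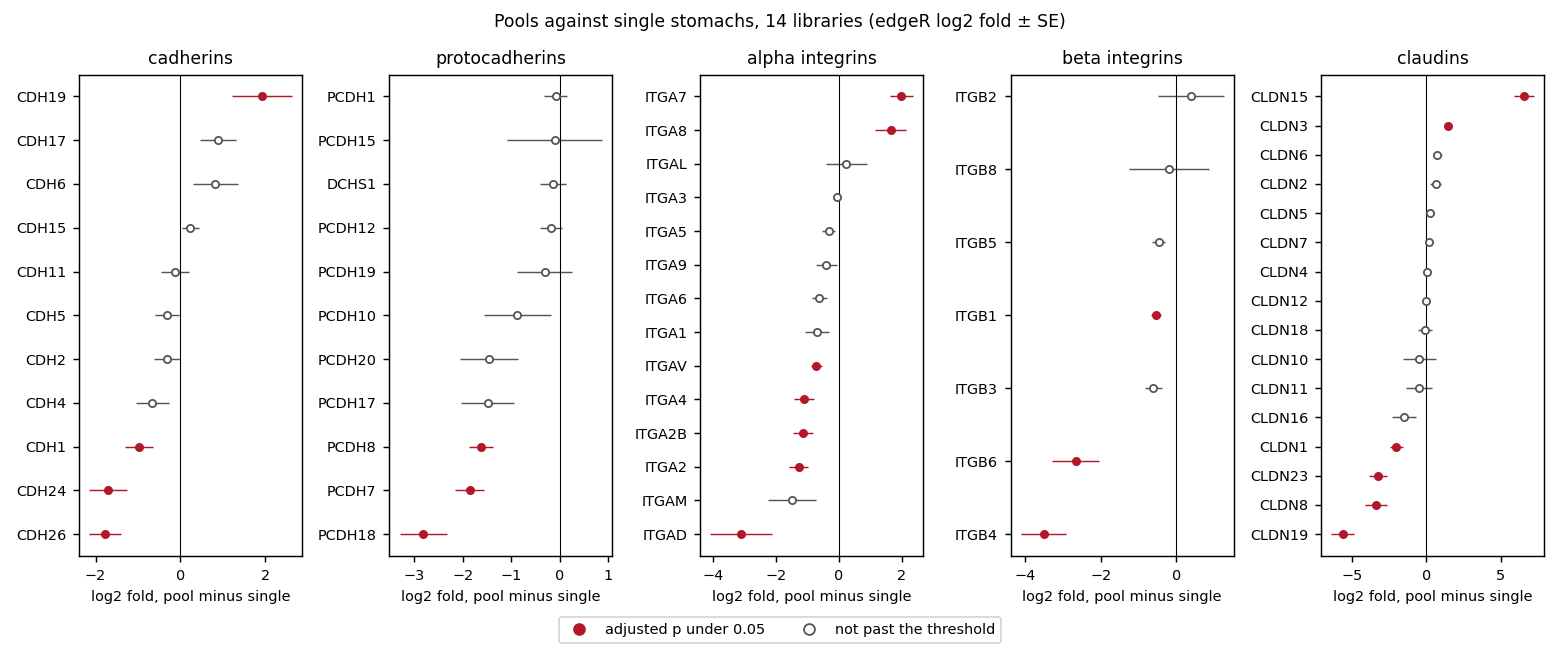
Log2 fold of pools minus single stomachs (horizontal axis) with its standard error for each tested member, in 1 panel per family, with filled points for an adjusted p under 0.05. Filled points number 5 to the right of 0 and 18 to the left, and all 11 protocadherins lie to the left of 0.

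Of the cadherins, E-cadherin did not separate the sides and was lower in pools. CDH1 (row P12830), the E-cadherin that joins epithelial cells, ran from 136 to 615 CPM (median 212) on the left and from 142 to 449 CPM (median 265) on the right. Both ranges overlapped throughout (log2 fold 0.08 ± 0.29, edgeR), and the left exceeded the right in 2 of 5 pairs. Library sets separated it more: 177 and 202 CPM in the left pools and 154 and 142 CPM in the right pools, against 136 to 282 CPM in replicates 1 to 3 and 429 to 615 CPM in replicates 5 and 6. Replicates 5 and 6 were the highest on both sides, and the pools overlapped replicates 1 to 3. Pools were called lower than single stomachs (log2 fold -0.97 ± 0.33, adjusted p = 0.0394, edgeR), a call not made against replicates 1 to 3 alone (log2 fold -0.39 ± 0.19, adjusted p = 0.134), with limma, or without any 1 of 9 libraries among them each of the 4 pools, where adjusted p lay between 0.0515 and 0.110.

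CDH4, R-cadherin, a classical relative of CDH1 and CDH2, was likewise highest in replicates 5 and 6. It was at 45.7 to 82.4 CPM in pools, 36.01 to 76.996 CPM in replicates 1 to 3 and 138 to 193 CPM in replicates 5 and 6. Unlike CDH1 it was not called between sources (log2 fold -0.66 ± 0.39, adjusted p = 0.216, edgeR), and the difference between the 2 genes was not tested. Its CPM stood at 0.321 to 0.408 of that of CDH1 in pools and 0.252 to 0.325 in single-stomach libraries. Classical cadherins are similar in sequence, so reads may have been shared between these rows, and the CDH4 values are uncertain for that reason. CDH26, a cadherin known from human and mouse epithelia and here too highest in replicates 5 and 6, was lowest in the pools. It was at 47.6 and 27.7 CPM in the left pools and 37.7 and 31.02 CPM in the right pools, against 58.7 to 91.8 CPM in replicates 1 to 3 and 151 to 215 CPM in replicates 5 and 6, with no overlap between any of these 3 sets. CDH26 was called lower in pools (log2 fold -1.78 ± 0.38, adjusted p = 0.00272, edgeR), and against each single-stomach set alone, whereas no call was made between its sides (log2 fold 0.06 ± 0.31). CDH24, another catenin-binding cadherin, was at 0.289 to 0.931 CPM in pools and 1.11 to 3.81 CPM (median 2.08) in single-stomach libraries (log2 fold -1.71 ± 0.44, adjusted p = 0.00958).

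Cadherins of mesenchyme and nerve showed wide overlap of the sides. CDH11, a cadherin of mesenchymal cells, ran from 37.3 to 102 CPM (median 51.03) on the left and from 27.2 to 86.5 CPM (median 56.05) on the right. Within the pairs 1, 2, 3, 5 and 6 it was at 81.4, 102, 87.2, 37.3 and 42.4 CPM on the left and at 50.5, 56.05, 86.5, 35.2 and 27.2 CPM on the right. Left exceeded right in all 5, by ratios of 1.61, 1.82, 1.01, 1.06 and 1.56, so that pairs 3 and 5 were close to equal. In the pools the order was the other way, with both right pools above both left pools (51.03 and 38.3 CPM in the left pools and 57.3 and 70.8 CPM in the right pools). The paired edgeR fold was 0.46 ± 0.13 (unadjusted p = 0.00864, adjusted p over all rows not past the threshold), and DESeq2 gave an adjusted p of 0.101 with all pairs and 0.0431 without pair 3. CDH11 was also lower in replicates 5 and 6 (27.2 to 42.4 CPM) than in replicates 1 to 3 (50.5 to 102 CPM), with no overlap.

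N-cadherin and the kidney cadherin CDH6 had negative folds over the 14 libraries that did not pass the test. CDH2, N-cadherin of neural and mesenchymal cells, ran from 9.93 to 33.5 CPM (median 20.9) on the left and from 13.3 to 36.8 CPM (median 28.6) on the right (log2 fold -0.34 ± 0.27). Within the pairs its fold was -0.00 ± 0.10, and left exceeded right in 2 of 5. CDH6, a cadherin of kidney and neural crest, ran from 1.96 to 9.17 CPM (median 7.46) on the left and from 1.52 to 17.5 CPM (median 9.61) on the right (log2 fold -0.71 ± 0.49). Its 3 highest values were right libraries, the single-stomach replicate 1 and both pools, while replicates 5 and 6 were low on both sides at 1.52 to 2.20 CPM. Against replicates 5 and 6 alone, pools were called higher in CDH6 (log2 fold 2.49 ± 0.29, adjusted p = 0.000254, edgeR), but not against all single stomachs (adjusted p = 0.259).

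The endothelial cadherin CDH5 was called neither by side nor by source. CDH5, VE-cadherin, ran from 33.2 to 127 CPM (median 68.6) on the left and from 54.8 to 125 CPM (median 95.2) on the right (log2 fold -0.30 ± 0.26). The sides overlapped, and left exceeded right in 3 of 5 pairs. The lowest value of all libraries was in the left pool 8, and the pools were at 68.6 and 33.2 CPM in the left pools and 95.2 and 94.4 CPM in the right pools. Of 7 endothelial markers 4 were called lower in pools and 1, PECAM1 (listed as PECA1), higher. The list summed to 72.2 to 131 CPM in pools and 149 to 236 CPM in single-stomach libraries. CDH5 was at 33.2 to 95.2 CPM in pools and 54.8 to 127 CPM (median 89.9) in single-stomach libraries (adjusted p = 0.435, edgeR).

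Cadherins known from organs other than the stomach were called between sources in 1 case, CDH19. CDH17, the liver-intestine cadherin, ran from 0.608 to 2.77 CPM (median 1.01) on the left and from 0.484 to 3.54 CPM (median 1.18) on the right. The right pool 8 was the highest library and lay apart from the rest. CDH19, known from the glial lineage of the neural crest, ran from 0 to 1.82 CPM (median 0.260) on the left and from 0.0862 to 0.784 CPM (median 0.261) on the right. It was at 1.82 and 0.834 CPM in the left pools and 0.784 and 0.505 CPM in the right pools, against 0 to 0.814 CPM (median 0.188) in single-stomach libraries, which overlapped. Its call as higher in pools (log2 fold 1.93 ± 0.70, adjusted p = 0.0494) was lost without any 1 of 11 of the 14 libraries, including each pool, with adjusted p between 0.0612 and 0.171. The neural crest and neuron markers were not called between sources, with sums of 4.17 to 16.6 CPM in pools and 1.77 to 43.4 CPM in single-stomach libraries. CDH15, the muscle cadherin, varied little (13.8 to 19.2 CPM (median 14.6) on the left and 8.64 to 18.1 CPM (median 15.6) on the right).

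Among protocadherins PCDH8 lay lower on the left in every pair. PCDH8 (row O95206-2), whose relative in Xenopus is the paraxial protocadherin of gastrula movements, ran from 13.5 to 85.3 CPM (median 55.2) on the left and from 26.3 to 113 CPM (median 65.9) on the right. In pairs 1, 2, 3, 5 and 6 it was at 57.2, 32.2, 55.2, 85.3 and 64.8 CPM on the left and at 72.4, 56.7, 65.9, 113 and 84.9 CPM on the right. Left was below right in every pair, at ratios of 0.790, 0.568, 0.839, 0.755 and 0.763, although both sides overlapped because the levels of the pairs differed. Both left pools were also below both right pools (23.3 and 13.5 CPM in the left pools and 26.9 and 26.3 CPM in the right pools).

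DESeq2 with the pair block called PCDH8 lower on the left (log2 fold -0.45 ± 0.11, adjusted p = 0.0157), whereas edgeR on the same pairs gave a fold of -0.44 ± 0.09 with an unadjusted p of 0.00111 and no call. Without a pair, DESeq2 still called it when pair 3 or pair 5 was left out (adjusted p = 0.0208 and 0.0388) and not when pair 1, 2 or 6 was (adjusted p = 0.0977, 0.110 and 0.0783). Over 14 libraries the edgeR fold was -0.45 ± 0.21 (unadjusted p = 0.0471, adjusted p not past the threshold). PCDH8 was also among the members called lower in pools (log2 fold -1.62 ± 0.25, adjusted p = 0.000336, edgeR), where 13.5 to 26.9 CPM stood below all single-stomach values of 32.2 to 113 CPM (median 65.3).

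PCDH19, a protocadherin of neural tissue and a partner of N-cadherin in zebrafish, had mostly higher left values. It ran from 1.36 to 10.9 CPM (median 6.39) on the left and from 1.17 to 9.02 CPM (median 3.72) on the right, with overlap. The left-to-right ratios in pairs 1, 2, 3, 5 and 6 were 1.72, 2.54, 0.956, 2.92 and 1.42, above 1 in 4 of 5. Its paired edgeR fold was 0.80 ± 0.23 (unadjusted p = 0.00699, not called), and DESeq2 called it only without pair 3 (log2 fold 1.04 ± 0.24, adjusted p = 0.0128, against 0.0677 with all pairs). The left pools were its highest and its lowest pool (7.80 and 1.36 CPM in the left pools and 3.87 and 3.10 CPM in the right pools).

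PCDH12, a protocadherin of endothelium, ran from 7.96 to 18.7 CPM (median 11.002) on the left and from 10.02 to 19.5 CPM (median 16.6) on the right (log2 fold -0.40 ± 0.21). Both ranges overlapped, and left was below right in 3 of 5 pairs. DCHS1 (entry PCD16), the Dachsous ligand of the FAT cadherins in planar polarity, ran from 7.27 to 27.4 CPM (median 17.5) on the left and from 14.7 to 27.97 CPM (median 20.7) on the right (log2 fold -0.15 ± 0.25). Its side fold differed between pools and single stomachs only at an unadjusted p (0.0298, log2 difference -1.14), with the left pool 8 lowest at 7.27 CPM. Without the left pool 7, the edgeR log2 difference was -1.91 for DCHS1, -9.98 for PCDH17 and 3.05 for ITGB4. Only 1 library is then left for the left pools and is assumed to vary like the other groups, so no call is given for that fit. PCDH17, a protocadherin of neural tissue, was at 2.69 and 0 CPM in the left pools and 3.09 and 3.68 CPM in the right pools, and with 0 counts in 1 library its fitted difference depends on the prior count.

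Other protocadherins set pools apart or divided the single-stomach sets. PCDH18, which binds the adaptor DAB1 in mouse, was at 3.64 and 7.50 CPM in the left pools and 5.54 and 4.40 CPM in the right pools, against 15.5 to 25.1 CPM in replicates 1 to 3 and 52.8 to 70.8 CPM in replicates 5 and 6, with no overlap between the 3 sets. It was called lower in pools (log2 fold -2.81 ± 0.49, adjusted p = 0.000734, edgeR). PCDH7 was at 3.21 to 5.92 CPM in pools and 9.87 to 27.8 CPM (median 12.9) in single-stomach libraries, without overlap (log2 fold -1.86 ± 0.30, adjusted p = 0.000426). PCDH1, a protocadherin of epithelia, kept to 30.98 to 66.8 CPM (median 55.5) on the left and 32.5 to 68.2 CPM (median 46.97) on the right and was not called between sources (adjusted p = 0.819). PCDH10 had 1 high library, left 3 at 7.41 CPM, in a range of 0.698 to 7.41 CPM (median 1.87) over single stomachs.

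**Figure D4:**
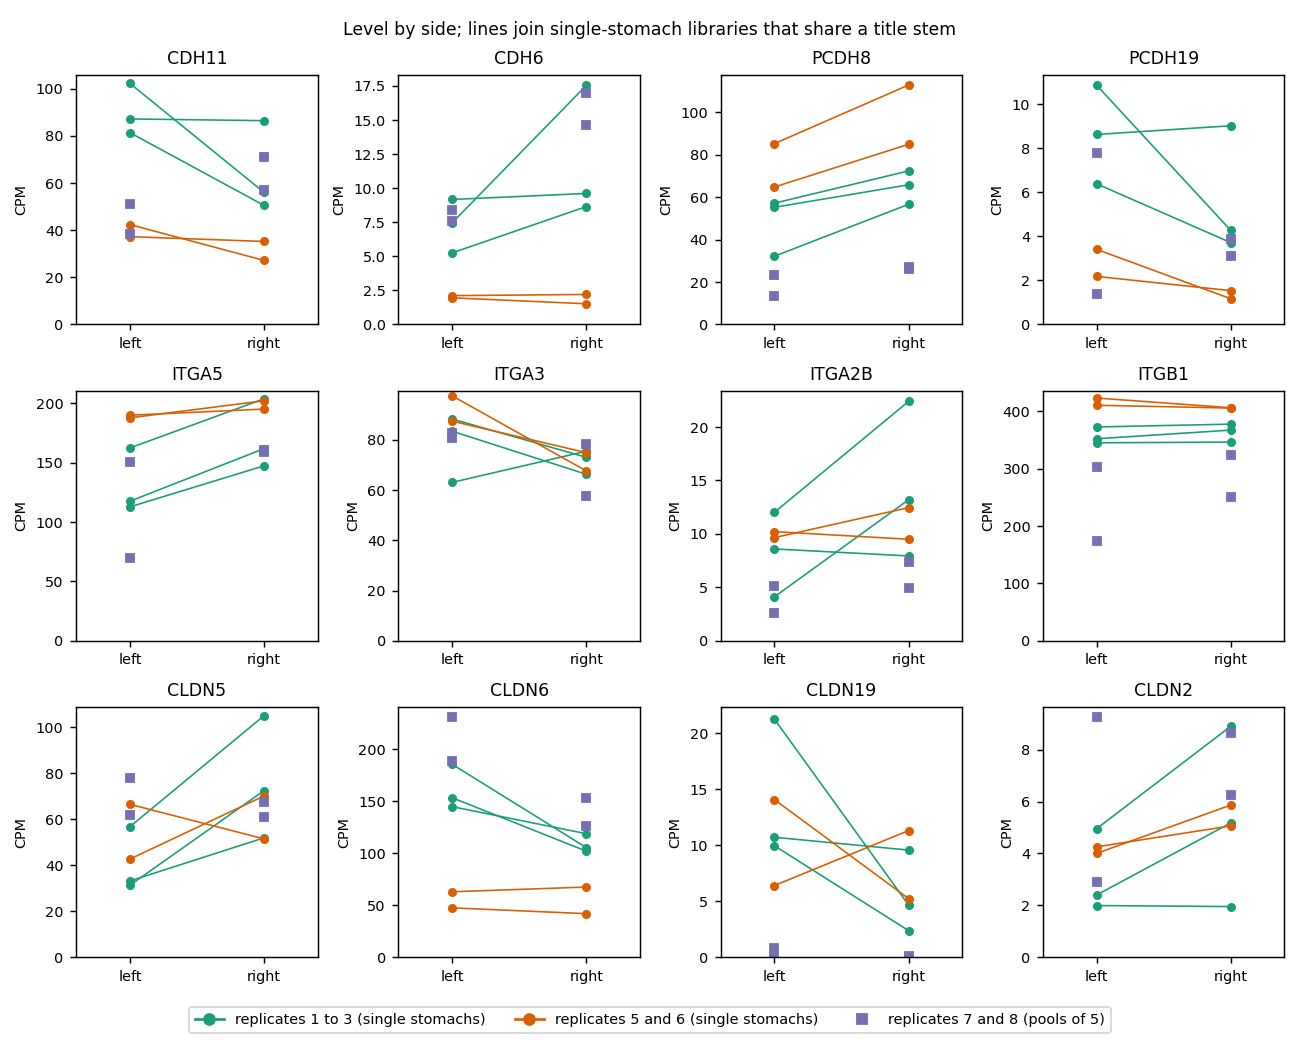
CPM of 12 members (vertical axis, from 0) on the left and on the right, with lines joining single-stomach libraries that share a title stem, and squares for the pools of 5, which are not joined. CDH11 is higher on the left on all 5 lines, by little in 2 of them, PCDH8 and ITGA5 are lower on the left on all 5, and ITGB1 is nearly level on each.

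Among alpha integrins the fibronectin receptor ITGA5 was the member with lower left values in every pair. ITGA5 (row P08648), the alpha chain of the main fibronectin receptor, ran from 70.1 to 190.0 CPM (median 150.3) on the left and from 147 to 204 CPM (median 162) on the right. In pairs 1, 2, 3, 5 and 6 it was at 162, 118, 113, 190.0 and 188 CPM on the left and at 204, 162, 147, 195 and 202 CPM on the right. Left was below right in all 5, at ratios of 0.797, 0.726, 0.766, 0.974 and 0.929, a smaller step in pairs 5 and 6 than in the other 3. The paired edgeR fold was -0.26 ± 0.08 (unadjusted p = 0.00991, not called), and the fold over 14 libraries was -0.33 ± 0.18. DESeq2 did not call it either. The lowest library was the left pool 8, and both right pools were above both left pools (150.3 and 70.1 CPM in the left pools and 161 and 159 CPM in the right pools).

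ITGA4, which pairs with ITGB1 to bind fibronectin and VCAM1, ran from 16.2 to 133 CPM (median 66.4) on the left and from 56.2 to 128 CPM (median 83.1) on the right (log2 fold -0.38 ± 0.27). Its left pool 8 was again the lowest library, among pools at 47.3 and 16.2 CPM in the left pools and 66.6 and 56.2 CPM in the right pools. ITGAV, the alpha chain of vitronectin receptors, ran from 36.7 to 99.8 CPM (median 59.6) on the left and from 56.5 to 91.5 CPM (median 78.7) on the right (log2 fold -0.21 ± 0.15). Both were called lower in pools by edgeR, ITGA4 with a log2 fold of -1.10 ± 0.32 (adjusted p = 0.0161) and ITGAV with -0.72 ± 0.17 (adjusted p = 0.00615). Against replicates 1 to 3 alone the ITGA4 call was not made (adjusted p = 0.0526). ITGA9, a receptor of tenascin, ran from 11.1 to 32.7 CPM (median 13.3) on the left and from 10.9 to 34.7 CPM (median 23.8) on the right and was not called in either comparison.

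Neither ITGA3 nor ITGA6, both laminin-binding alpha chains, was called by edgeR between sides or sources. ITGA3, of epithelial basement membranes, was the member with the smallest unadjusted p between the sides over 14 libraries (log2 fold 0.24 ± 0.11, unadjusted p = 0.0388, not past the adjusted threshold). It ran from 63.04 to 97.5 CPM (median 83.4) on the left and from 57.6 to 78.4 CPM (median 73.01) on the right, with left above right in 4 of 5 pairs and both left pools above both right pools (82.8 and 80.9 CPM in the left pools and 78.4 and 57.6 CPM in the right pools). ITGA6, the partner of ITGB4 in hemidesmosomes, ran from 40.01 to 125 CPM (median 80.05) on the left and from 42.1 to 116 CPM (median 74.2) on the right (log2 fold 0.10 ± 0.21). ITGA6 was at 40.01 to 80.05 CPM in pools and 64.2 to 125 CPM (median 82.7) in single-stomach libraries, just short of a call (log2 fold -0.63 ± 0.24, adjusted p = 0.0549, edgeR), and DESeq2 called it (adjusted p = 0.0469).

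ITGA7, the laminin receptor of muscle, was higher in pools than in any single stomach. It was at 1.91 and 2.65 CPM in the left pools and 2.84 and 1.15 CPM in the right pools, against 0.221 to 0.814 CPM (median 0.568) in single-stomach libraries (log2 fold 1.99 ± 0.37, adjusted p = 0.00110, edgeR), a call also made against each single-stomach set alone. The sum of the 7 skeletal and cardiac muscle markers given above was higher in pools too, with overlap. Of 3 tested smooth muscle markers 2 had a positive fold and 1 a negative one, with a median of 0.33. Among these 0 were called higher and 1 lower. The part of either list in the ITGA7 values was not tested. Sides overlapped in ITGA7, at 0.221 to 2.65 CPM (median 0.801) on the left and 0.283 to 2.84 CPM (median 0.652) on the right. ITGA8, the nephronectin receptor of mesenchyme, was at 12.4 and 4.24 CPM in the left pools and 14.8 and 28.6 CPM in the right pools, against 1.74 to 7.76 CPM (median 5.53) in single-stomach libraries (log2 fold 1.65 ± 0.50, adjusted p = 0.0211). Its left pool 8 lay within the single-stomach range, and against replicates 1 to 3 alone the adjusted p was 0.0705.

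Of the collagen-binding and platelet chains ITGA2 and ITGA2B were called lower in pools and ITGA1 was not. ITGA2, an alpha chain of a collagen receptor, was at 8.18 to 14.7 CPM in pools and 15.9 to 41.3 CPM (median 23.005) in single-stomach libraries, without overlap (log2 fold -1.29 ± 0.30, adjusted p = 0.00498). ITGA1, another collagen-binding chain, was at 1.21 to 4.46 CPM in pools and 2.21 to 7.63 CPM (median 3.24) in single-stomach libraries, with overlap (log2 fold -0.69 ± 0.38, adjusted p = 0.190). ITGA2B, which pairs with ITGB3 as the fibrinogen receptor of platelets, ran from 2.58 to 12.02 CPM (median 8.60) on the left and from 4.90 to 22.4 CPM (median 9.50) on the right (log2 fold -0.58 ± 0.27, unadjusted p = 0.0487, not past the adjusted threshold). Its highest library was right 1 at 22.4 CPM, and the pair ratios were 0.537, 0.312, 1.08, 0.775 and 1.08, below 1 in 3 of 5. It was called lower in pools (2.58 to 7.36 CPM in pools and 4.11 to 22.4 CPM (median 9.94) in single-stomach libraries, log2 fold -1.16 ± 0.32, adjusted p = 0.0144).

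ITGAD, ITGAL and ITGAM, the alpha chains that pair with ITGB2 on leukocytes, were low. ITGAD was at 0 to 0.0980 CPM in pools and 0.130 to 1.64 CPM (median 0.317) in single-stomach libraries (log2 fold -3.11 ± 0.99, adjusted p = 0.0270, edgeR). This call was lost without the pool left 8 (adjusted p = 0.0668) or right 8 (0.0815). Pools held 0 to 2 counts of ITGAD each, so the size of the fold depends on the prior count. Its row passed the filter on low counts through the single-stomach libraries. In the fit of pools against replicates 5 and 6 alone it did not pass. Library right 2 was the highest in all 3 chains, at 1.64, 1.42 and 3.97 CPM, and it also had the highest sum of the 5 matched leukocyte markers, 34.3 CPM. Their part in that library's values was not tested.

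Of the beta integrins ITGB1 was nearly level between the sides within the pairs and lower in pools. ITGB1 (row P05556), the common partner of most matrix-binding alpha chains, ran from 173 to 423 CPM (median 352) on the left and from 251 to 406 CPM (median 367) on the right. Over 14 libraries its log2 fold was -0.08 ± 0.12, with the left pool 8 the lowest library. Left-to-right ratios in the 5 pairs were 0.959, 0.997, 0.987, 1.01 and 1.04, all within 5% of equality, and the paired fold was -0.00 ± 0.06. Across sources it was at 303 and 173 CPM in the left pools and 324 and 251 CPM in the right pools, below all single-stomach values of 345 to 423 CPM (median 375) (log2 fold -0.54 ± 0.14, adjusted p = 0.00939, edgeR). Against replicates 1 to 3 alone the adjusted p was 0.0541.

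ITGB4, the laminin-binding chain of hemidesmosomes in stratified epithelia, had a large source difference. It was at 2.17 and 9.85 CPM in the left pools and 1.27 and 1.01 CPM in the right pools, against 11.99 to 41.1 CPM in replicates 1 to 3 and 32.3 to 69.4 CPM in replicates 5 and 6 (log2 fold -3.51 ± 0.60, adjusted p = 0.000647, edgeR). All pools lay below all single stomachs. The left pool 8 was the highest pool in ITGB4 and also in the sum of the 6 epidermal markers, 124.7 CPM there against 6.06 to 13.9 CPM in the other 3 pools. The sides gave 2.17 to 69.4 CPM (median 27.4) on the left and 1.01 to 45.1 CPM (median 29.6) on the right (log2 fold 0.57 ± 0.45), while the fold within the pairs was -0.14 ± 0.25. The side difference was larger in pools at an unadjusted p of 0.0168 (log2 difference 2.35, adjusted p not past the threshold).

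ITGB6, an epithelial chain that pairs with ITGAV to release active TGF-beta, was at 0.173 and 0 CPM in the left pools and 0.980 and 0.289 CPM in the right pools, against 0.912 to 3.53 CPM (median 2.29) in single-stomach libraries (log2 fold -2.66 ± 0.62, adjusted p = 0.00518). Its left pools were the 2 lowest libraries. ITGB3, the partner of ITGAV and ITGA2B, ran from 27.1 to 57.7 CPM (median 46.98) on the left and from 29.4 to 80.3 CPM (median 49.4) on the right, and was at 27.1 to 46.98 CPM in pools and 28.1 to 80.3 CPM (median 52.7) in single-stomach libraries (adjusted p = 0.0604). ITGB5, another partner of ITGAV, was within 12.9 to 23.3 CPM (median 16.3) on the left and 13.1 to 24.99 CPM (median 16.2) on the right. ITGB8, likewise a partner of ITGAV, was at 0 to 3.91 CPM (median 0.606) on the left and 0.172 to 1.71 CPM (median 0.367) on the right, with library left 1 apart from the rest.

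ITGB2, the beta chain of leukocyte integrins, differed widely between the single-stomach sets. It was at 9.85 to 32.6 CPM in pools, 23.7 to 39.4 CPM in replicates 1 to 3 and 0.501 to 3.99 CPM in replicates 5 and 6. On the left it ran from 1.26 to 32.7 CPM (median 23.7) and on the right from 0.501 to 39.4 CPM (median 28.5), so that both sides held low and high libraries. The 5 matched leukocyte markers summed to 8.49 to 21.8 CPM in pools, 9.84 to 34.3 CPM in replicates 1 to 3 and 4.42 to 8.10 CPM in replicates 5 and 6. Their part in the ITGB2 values was not tested.

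**Figure D5:**
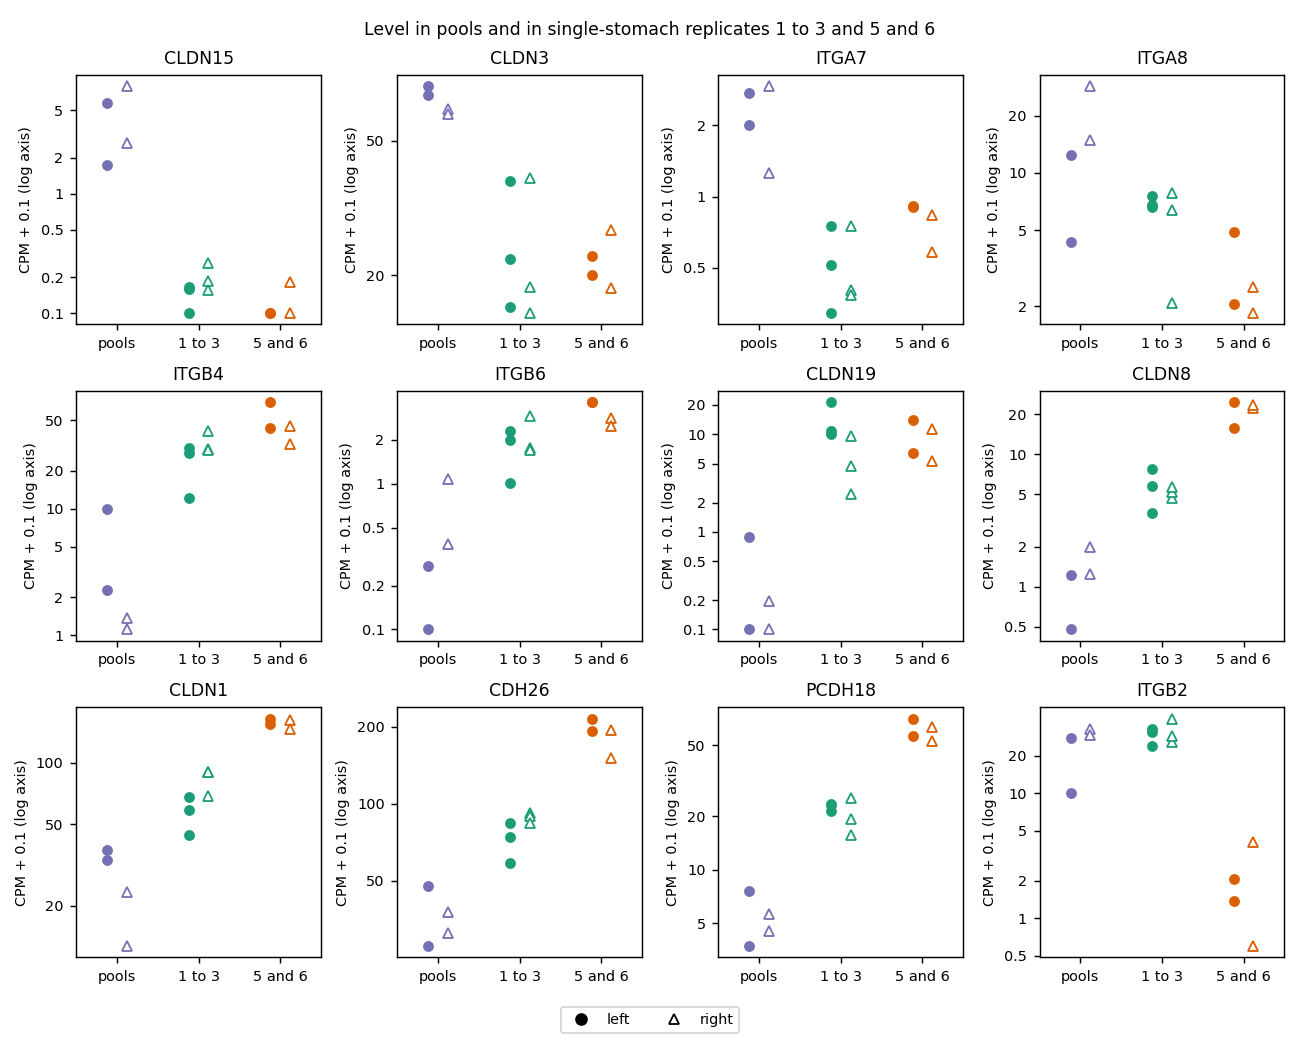
CPM plus 0.1 (vertical log axis) of 12 members in the pools and in single-stomach replicates 1 to 3 and 5 and 6, filled circles for left and open triangles for right. CLDN15, CLDN3 and ITGA7 are above every single stomach in the pools, ITGB4, CLDN19, CLDN8, CLDN1, CDH26 and PCDH18 are below, and ITGB2 is at 3.99 CPM or less in replicates 5 and 6.

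The claudins held the largest source differences, and CLDN5 was lower on the left in 4 of 5 pairs. CLDN5 (row O00501), a claudin known from endothelial cells, ran from 31.3 to 77.8 CPM (median 56.8) on the left and from 51.5 to 105 CPM (median 67.4) on the right. In pairs 1, 2, 3, 5 and 6 it was at 56.8, 31.3, 33.2, 66.5 and 42.7 CPM on the left and at 105, 72.5, 51.96, 51.5 and 70.2 CPM on the right, with ratios of 0.540, 0.432, 0.638, 1.29 and 0.608. Pair 5 was thus the exception, and in pools the sides overlapped (61.8 and 77.8 CPM in the left pools and 67.4 and 60.8 CPM in the right pools). DESeq2 with the pair block called CLDN5 lower on the left (log2 fold -0.63 ± 0.17, adjusted p = 0.0397), and without pair 5 the fold was -0.87 ± 0.12 (adjusted p = 2.46e-09). It was not called without pair 1, 2, 3 or 6 (adjusted p = 0.761, 0.899, 0.826 and 0.437), nor by edgeR (fold -0.62 ± 0.19, unadjusted p = 0.0117).

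Of the other members known from endothelium CDH5 had more on the left in 3 of 5 pairs and PCDH12 in 2 of 5. Neither was called in the pairs (paired edgeR folds of -0.06 ± 0.12 and -0.28 ± 0.18). Whether their side folds differed from that of CLDN5 was not tested. The sum of the endothelial markers was higher on the left in 3 of 5, and DESeq2 called 0 of these 7 markers in the pairs.

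CLDN6, a claudin of embryonic epithelia, had higher left values in 4 of 5 pairs. It ran from 47.5 to 231 CPM (median 154) on the left and from 41.9 to 153 CPM (median 106) on the right, and the pair ratios were 1.504, 1.22, 1.76, 1.13 and 0.933. The paired edgeR fold was 0.35 ± 0.13 (unadjusted p = 0.0213, not called), and the fold over 14 libraries was 0.49 ± 0.30. Levels followed the sets, at 126 to 231 CPM in pools, 102 to 186 CPM in replicates 1 to 3 and 41.9 to 67.5 CPM in replicates 5 and 6. Pools were called higher than either single-stomach set alone (log2 fold 0.39 ± 0.11 and 1.60 ± 0.21, adjusted p = 0.0195 and 0.000472) and not than both together (adjusted p = 0.0867).

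CLDN19, known with CLDN16 for magnesium retention in the kidney, was close to 0 in pools. It was at 0.780 and 0 CPM in the left pools and 0.0980 and 0 CPM in the right pools, against 2.37 to 21.2 CPM (median 9.75) in single-stomach libraries, a range the pools did not reach (log2 fold -5.61 ± 0.76, adjusted p = 0.000131, edgeR). Pools held 0 to 9 counts of it each, so the size of the fold depends on the prior count. The kidney list, PAX8, PAX2, LHX1 and CDH16, summed to 0.606 to 3.72 CPM in pools and 2.46 to 25.96 CPM in single-stomach libraries, and its part in the CLDN19 values was not tested. Between the sides CLDN19 had the largest fold of the 4 members under an unadjusted 0.05 (1.06 ± 0.48, unadjusted p = 0.0443). The left ran from 0 to 21.2 CPM (median 9.94) and the right from 0 to 11.3 CPM (median 4.66), with pair ratios of 4.56, 4.19, 1.12, 0.566 and 2.69. DESeq2 called it higher on the left only without pair 5 (log2 fold 1.45 ± 0.31, adjusted p = 0.00195, against 0.959 with all pairs). CLDN16 itself was at 0 to 1.39 CPM (median 0.571) on the left and 0 to 1.86 CPM (median 0.791) on the right and was not called.

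CLDN15, a cation pore of the intestinal epithelium, was the member with the largest rise in pools. It was at 1.65 and 5.68 CPM in the left pools and 2.55 and 7.86 CPM in the right pools, whereas single-stomach libraries held 0 to 5 counts each, 0 to 0.163 CPM (median 0.0579). The log2 fold of 6.59 ± 0.67 (adjusted p = 1.87e-05, edgeR) rests on these few counts and depends on the prior count. CLDN15 passed the filter on low counts through the pools, the group in which it was high. It did not pass in the edgeR fit within title pairs. Replicate 8 was the higher pool on both sides. CLDN3, a sealing claudin of gut epithelium, also stood above every single stomach. It was at 72.4 and 68.2 CPM in the left pools and 61.96 and 59.7 CPM in the right pools, against 15.3 to 38.8 CPM (median 21.1) in single-stomach libraries (log2 fold 1.47 ± 0.23, adjusted p = 0.000368). Its sides overlapped fully, at 16.003 to 72.4 CPM (median 22.7) on the left and 15.3 to 61.96 CPM (median 27.2) on the right.

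CLDN1, the claudin of the epidermal barrier, and CLDN8, of tight distal epithelia, were lower in pools and highest in replicates 5 and 6. CLDN1 was at 33.4 and 37.4 CPM in the left pools and 23.2 and 12.6 CPM in the right pools, against 44.4 to 90.4 CPM in replicates 1 to 3 and 145 to 164 CPM in replicates 5 and 6 (log2 fold -2.002 ± 0.42, adjusted p = 0.00250, edgeR). CLDN8 was at 1.13 and 0.379 CPM in the left pools and 1.91 and 1.15 CPM in the right pools, against 3.49 to 7.66 CPM in replicates 1 to 3 and 15.7 to 24.5 CPM in replicates 5 and 6 (log2 fold -3.38 ± 0.71, adjusted p = 0.00266). In neither did any 2 of the 3 sets overlap. The epidermal list had the same order, with sums of 6.06 to 125 CPM in pools, 225 to 651 CPM in replicates 1 to 3 and 1044 to 1284 CPM in replicates 5 and 6. CLDN23 was likewise below all single stomachs in pools (0 to 1.30 CPM in pools and 2.69 to 10.1 CPM (median 4.28) in single-stomach libraries, log2 fold -3.24 ± 0.62, adjusted p = 0.00136).

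Several epithelial claudins were called neither by side nor by source. CLDN4 (row O14493) ran from 281 to 594 CPM (median 487) on the left and from 277 to 688 CPM (median 356) on the right, with 317 to 594 CPM in pools and 277 to 688 CPM (median 399) in single-stomach libraries (log2 fold of pools 0.05 ± 0.25, adjusted p = 0.912). CLDN7 ran from 80.5 to 215 CPM (median 94.7) on the left and from 71.5 to 115 CPM (median 92.3) on the right, with the left pool 8 highest. CLDN18, in mammals a claudin of stomach and lung epithelium, ran from 2.13 to 12.1 CPM (median 7.30) on the left and from 2.57 to 10.4 CPM (median 4.40) on the right (log2 fold 0.32 ± 0.42). Its values in replicates 5 and 6 were 2.13 to 4.01 CPM and below all of replicates 1 to 3, at 4.40 to 12.1 CPM. CLDN2, a cation pore of leaky epithelia, ran from 1.99 to 9.27 CPM (median 4.0001) on the left and from 1.95 to 8.90 CPM (median 5.86) on the right, with ratios of 0.556, 0.463, 1.02, 0.840 and 0.682 in the pairs (paired edgeR fold -0.55 ± 0.17, unadjusted p = 0.0109, not called). CLDN12 had the smallest spread of all tested members, 7.98 to 13.3 CPM.

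Partners of the members inside and outside the cell were counted in the same fits. Between the sides edgeR called none of the tested genes of the 5 partner lists, and DESeq2 in the pairs called 1, vitronectin, named above. The 15 matched integrin ligands summed higher on the left in 5 of 5 pairs. In pools their sums overlapped, at 1521 and 1825 CPM on the left and 2171 and 1492 CPM on the right. Over 14 libraries 7 of the 14 tested ligands had a positive fold and 7 a negative one. The other 4 lists summed higher on the left in 1 to 4 pairs. For pools, the shares of the lists are to be read against 17.7% of rows lower and 12.7% higher. Of 10 tested catenins and cadherin partners 5 (50%) were called lower in pools, among them beta-catenin (CTNB1, 951 to 1415 CPM in pools and 1451 to 2014 CPM in single-stomach libraries, log2 fold -0.47 ± 0.12, adjusted p = 0.00906) and plakoglobin (PLAK, log2 fold -0.93 ± 0.20). Of 7 desmosome genes 2 (28.6%), the desmocollins DSC1 (log2 fold 1.13 ± 0.13, adjusted p = 3.29e-05) and DSC2 (1.09 ± 0.16, adjusted p = 0.000190), were called higher and 0 lower. Folds of the other 5 were negative, and the median of the 7 was -0.23. Of 16 tight junction partners 2 (12.5%, under the share of all rows) were called lower, ZO1 (log2 fold -0.51 ± 0.14, adjusted p = 0.0116) and MPDZ (-0.90 ± 0.20, adjusted p = 0.00395), and occludin (OCLN) was not called.

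Of 18 integrin adaptors 10 (55.6%) were called lower in pools and 1 (5.56%) higher. Talins TLN1 (log2 fold -0.69 ± 0.20, adjusted p = 0.0180) and TLN2 (-0.79 ± 0.17, adjusted p = 0.00355), which couple beta chains to actin, were lower, and kindlin-1 (FERM1, 0.54 ± 0.11, adjusted p = 0.00218) was higher. Of 14 tested integrin ligands 6 (42.9%) were lower and 2 (14.3%) higher. Fibronectin (FINC), the ligand of ITGA5 with ITGB1, was at 542 to 939 CPM in pools and 911 to 1786 CPM in single-stomach libraries (log2 fold -0.85 ± 0.21, adjusted p = 0.00728). Vitronectin (VTNC), a ligand of ITGAV, was at 111 to 362 CPM in pools and 11.2 to 83.1 CPM in single-stomach libraries (log2 fold 2.27 ± 0.44, adjusted p = 0.00161). Nephronectin (NPNT), the ligand of ITGA8, was lower in pools (-1.23 ± 0.40, adjusted p = 0.0309), whereas ITGA8 was higher.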

How the data were processed

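Per the labels' protocols, stomach RNA was purified with Trizol and a column kit, strand-specific kits were used, and the 10 single-stomach libraries and the 4 pools came from separate facilities. Raw counts as deposited by the authors cover 26940 rows, each a human UniProt entry or isoform, beside a normalized signal per row. Dividing the deposited counts by that signal gave 1 factor per library, and 100% of values returned the whole count within 0.01 reads, on which edgeR called 0 rows between the sides and 7082 between sources, as on the raw counts. Bowtie2 2.1.0, SAMtools 0.1.19, Trimmomatic, Bowtie and DESeq are named, without roles, in the submitters' processing notes. The assignment of reads to rows and any use of strand in it are not given in the sources used. Rows of 1 entry, which 18 members had, and close paralogs may have shared or split reads, so their values are uncertain.

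Counts were tested over all rows with edgeR 4.0.16 in R 4.3.3 (quasi-likelihood test, TMM, filterByExpr, Benjamini-Hochberg threshold 0.05). The terms were side and library source, their interaction, and, in single-stomach libraries, side with the title stem as a block. Standard errors of edgeR folds are the log2 fold over the root of F, and those of DESeq2 folds are as DESeq2 gives them. P-values reflect library-to-library spread, which may be technical, and intervals of counting error are not given. DESeq2 1.42.0, and limma 3.58.1 on log2(normalized signal + 1), were alternatives. On simulated counts only the edgeR fits of side and of source were tested, and not the paired fits, DESeq2 or limma. Stems were taken as pairs from the titles. Same-stem libraries deviated together from their group means (correlations of 0.62, 0.64, 0.64, 0.77 and 0.85). Libraries of different stems were not compared in this way, and the difference between the single-stomach sets could also raise these correlations. They therefore cannot decide whether the libraries of a stem belong together. Libraries of 1 side always differed by more than counting noise (chi-square over its degrees of freedom 15.6 or more). At the depths here 3 counts correspond to 0.0501 to 0.260 CPM per library.

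The members, marker lists, partner lists and tests were chosen with earlier results of these data known. Members given with full values were those of highest mean level, smallest left-right p, any left-right call or largest called source fold in each family, plus a list of well-known members. Other members named were chosen after their values were seen.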

Additional observations from a re-analysis of the deposited data

Results flagged for a closer look

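Among 74 groups of 7 libraries, a library at one end lay far from its neighbours by Dixon's test in 8. Chance flags about 1 in 20 groups drawn from a single normal population, so some of these are likely to be chance. The groups here mixed pools with single-stomach libraries, and some members were chosen for a large source fold. That rate is therefore only a rough guide. On the right, CDH17 was at 3.54 CPM in the pool right 8, where the next library had 1.70 CPM, and PCDH19 was at 9.02 CPM in right 3, above 4.27 CPM. ITGA7 was at 2.84 CPM in the pool right 7, above 1.15 CPM, and ITGAD was at 1.64 CPM in right 2, above 0.456 CPM. CLDN5 was at 105 CPM in right 1, above 72.5 CPM, and this library also gave 1 of the 4 pairs in which CLDN5 was lower on the left. ITGB8 was at 3.91 CPM in left 1, above 1.66 CPM. CLDN15 was at 5.68 CPM in the pool left 8, above 1.65 CPM, and at 7.86 CPM in the pool right 8, above 2.55 CPM, the next library being the other pool in both cases.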

How the results depend on the processing

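No member was called between the sides over 14 libraries under any alternative run, and DESeq2 called 13 rows with the replicate block and 6 with the 3 library sets, where edgeR called 0 rows with the replicate block. Within the title pairs DESeq2 called 102 rows and 2 members where edgeR called 0, and leaving out 1 pair moved these DESeq2 counts to 24 to 104 rows and 0 to 3 members. Without the block edgeR also called 0. For the interaction DESeq2 called 140 rows, and leaving out 1 library gave 0 to 1589 rows and 0 to 3 members, all of them without the pool left 7; the cause was not tested. Members higher in pools numbered 5 of 59, beside 2955 of 23271 rows. They were 3 of 56 with a filter of 10 counts in 7 libraries (2928 of 22313 rows). Against replicates 5 and 6 alone they were 8 of 58 (3104 of 22967 rows). With 1 library left out they numbered 3 to 5, beside 2336 to 3073 rows (3 members without the pool right 8). Members lower in pools numbered 16 to 20 with 1 library left out, beside 3450 to 4075 rows. Against both single-stomach sets separately, which share the pools, 3 of the 5 higher and 13 of the 18 lower calls were made. ITGAD, among the 18, was not tested against replicates 5 and 6 alone, where it did not pass the filter. The share of all rows called against both sets was not counted. The cadherin median of 0.06 became -0.0374 with no filter, -0.0355 by DESeq2, -0.0217 by limma, -0.0234 with the replicate block, -0.0200 with 3 sets, -0.0470 and -0.0335 by DESeq2 with the block and the sets, -0.17 in pools only and -0.11 to 0.10 with 1 library left out. The protocadherin median of -0.08 became -0.29 by limma, -0.56 in pools only, 0.068 in single stomachs only and -0.28 to 0.017 with 1 library left out, and that of alpha integrins was -0.63 in pools only. Sources hold different stems, so no block could be fitted between them. The pools were the shallowest libraries, and members with few counts there, such as CLDN19, ITGAD and ITGB6, are the least precise.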
